A study of Mus musculus with 4 samples.

Results

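The epidermal differentiation complex and the S100 genes were compared between Shh+ and Nfatc1+ cells of the embryonic hair peg. The set held every gene of the expression table whose symbol began with Sprr, Lce or S100, together with Lor, Flg2, Ivl, Hrnr, Rptn, Tchh, Tchhl1, Crct1 and Crnn. These were 61 of 23361 genes, and 9 of the 10 genes named singly were among them. Flg was not analysed here. In the RefSeq annotation of GRCm38.p6, 57 of the 61 lie on chromosome 3 between 90511034 (S100a1) and 93564645 (S100a10), a stretch of 3.054 Mb. The other 4, S100b, S100g, S100z and S100pbp, lie elsewhere.

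Both populations came from mouse embryonic back skin at E17.5, from mothers given Tamoxifen once at E15.5, and each had 2 RNA-seq libraries. Shh+ cells came from Shh-CreER::Rosa-stop-tdTomato::K14-H2BGFP embryos and Nfatc1+ cells from Nfatc1-CreER::Rosa-stop-tdTomato::K14-H2BGFP embryos. In both, tdTomato marks cells in which the CreER was active after Tamoxifen, and their progeny, and cells positive for tdTomato and for the K14-driven epithelial nuclear GFP were sorted. Shh+ cells were taken from dermis with hair pegs after dispase and removal of the epidermis, while Nfatc1+ cells were taken from trypsin-digested whole skin. The effects of digestion, of epidermis removal and of population cannot be told apart here, nor can fewer cells of a type and less RNA per cell. The sources do not say whether replicates were separate animals or litters, so p-values speak only to variation among these libraries, which could be technical in origin.

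The proteins of the epidermal differentiation complex build the cornified envelope, the cross-linked shell under the membrane of dying keratinocytes. Loricrin, involucrin, the small proline-rich (SPRR) and the late cornified envelope (LCE) proteins are joined by transglutaminases, and the fused-type proteins, which carry an S100-like domain and long repeats, bind keratin filaments or harden the inner root sheath and hair. S100 proteins are small calcium-binding proteins that act mostly as dimers, several of them on annexins and the actin cytoskeleton, and most of their genes sit at both ends of the same cluster.

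The sequence just before the start of a gene is shown for 7 genes. These are envelope genes and S100a9, detected mainly in Shh+ cells, and S100a11 and S100a6, which were higher in Nfatc1+ cells. S100a14, also higher in Nfatc1+ cells, had no promoter in the RefSeq table and is not shown. The sequences are the 150 bases before the RefSeq start in GRCm38.p6, read along the strand of the gene. Capitals mark matches to 4 motifs. The box bound by the TATA-binding protein was searched as the letters TATAAA on the strand of the gene. The other 3 were searched on both strands, AP-1 as TGANTCA, the site of Grainyhead-like factors as AACCNGTT and that of C/EBP as TTGCNNAA.
Lor (chr3:92083143-92083292, minus strand): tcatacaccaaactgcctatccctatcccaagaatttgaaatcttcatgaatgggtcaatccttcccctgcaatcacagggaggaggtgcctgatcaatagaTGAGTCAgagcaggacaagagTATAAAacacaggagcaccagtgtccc
Hrnr (chr3:93319599-93319748, plus strand): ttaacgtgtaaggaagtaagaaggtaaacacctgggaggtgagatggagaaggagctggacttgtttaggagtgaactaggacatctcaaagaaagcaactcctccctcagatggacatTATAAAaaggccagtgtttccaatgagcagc
Sprr1a (chr3:92485882-92486031, minus strand): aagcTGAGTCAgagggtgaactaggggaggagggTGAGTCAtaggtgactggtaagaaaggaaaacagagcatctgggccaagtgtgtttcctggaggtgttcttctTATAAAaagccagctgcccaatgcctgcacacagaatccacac
Sprr1b (chr3:92438780-92438929, minus strand): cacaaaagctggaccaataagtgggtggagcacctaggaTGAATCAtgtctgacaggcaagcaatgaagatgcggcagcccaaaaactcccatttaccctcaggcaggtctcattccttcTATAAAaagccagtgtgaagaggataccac
S100a9 (chr3:90695722-90695871, minus strand): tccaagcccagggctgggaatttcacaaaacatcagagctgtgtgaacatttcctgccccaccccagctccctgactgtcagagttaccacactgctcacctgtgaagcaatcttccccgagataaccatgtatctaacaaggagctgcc
S100a11 (chr3:93520346-93520495, plus strand): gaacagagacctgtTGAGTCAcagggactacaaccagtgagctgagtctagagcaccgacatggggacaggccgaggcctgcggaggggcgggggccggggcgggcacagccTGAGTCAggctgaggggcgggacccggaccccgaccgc
S100a6 (chr3:90612744-90612893, plus strand): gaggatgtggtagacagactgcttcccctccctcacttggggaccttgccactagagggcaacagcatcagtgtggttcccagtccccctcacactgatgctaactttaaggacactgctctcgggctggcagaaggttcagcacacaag
Among these 7, Lor, Hrnr, Sprr1a and Sprr1b had a TATA box, whose first base lay 27, 31, 43 and 30 bases before the start. An AP-1 match lay 48 bases before the start of Lor, 146 and 116 before that of Sprr1a, 111 before that of Sprr1b, and 136 and 38 before that of S100a11. The upstream windows of S100a9 and S100a6 held none of the motifs, and the printed matches did not overlap each other. Of the 27 members above 0 that had a promoter in the RefSeq table, 11 had a TATA box in this window in at least 1 of their promoters, 8 an AP-1 match, 1 a Grainyhead-like match (S100a3) and 1 a C/EBP match (Flg2). Over 32851 promoters, the same window held these motifs in 4.84%, 4.24%, 1.05% and 5.46%. A match is a string of letters and not a binding site.

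Levels are given as deposited, in FPKM (fragments scaled to transcript length and to library depth). Of the 61 genes, 31 (50.82%) were listed at 0 in all libraries, against 26.84% of all genes. Another 17 were above 0 in some library but below the level tested, a mean of 0.5 FPKM over the libraries. The 13 that were tested, of 12750 genes in all, were 10 S100 genes, S100pbp, Lor and Tchh. Differences are Shh+ minus Nfatc1+ on the log2(FPKM + 0.5) scale, which understates changes of low genes, and calls rest on limma at a Benjamini-Hochberg adjusted p under 0.05.

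Shh+ cells had more transcript of 2 tested members, Lor and S100a9, and Nfatc1+ cells had more of 6, S100a14, S100a1, S100a6, Tchh, S100a16 and S100a11. Without Nfatc1+ replicate 1, 3 of the 6 were called, S100a14, S100a6 and S100a16. Over all tested genes 14.9% were called higher in Shh+ cells, and 16.6% were called higher in Nfatc1+ cells. At a difference of at least 2-fold, Lor and S100a9 stayed on the Shh+ side, where 4.70% of all genes were called, and S100a14, S100a1 and S100a6 on the Nfatc1+ side, where 5.72% were. The median difference of the 13 was -0.59, against 0.0018 over all tested genes, and their median absolute difference was 0.80 against 0.24. Members that passed the level filter through a high value in one population had to differ, so these counts and medians describe the 13 and not the 61.

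**Figure D1:**
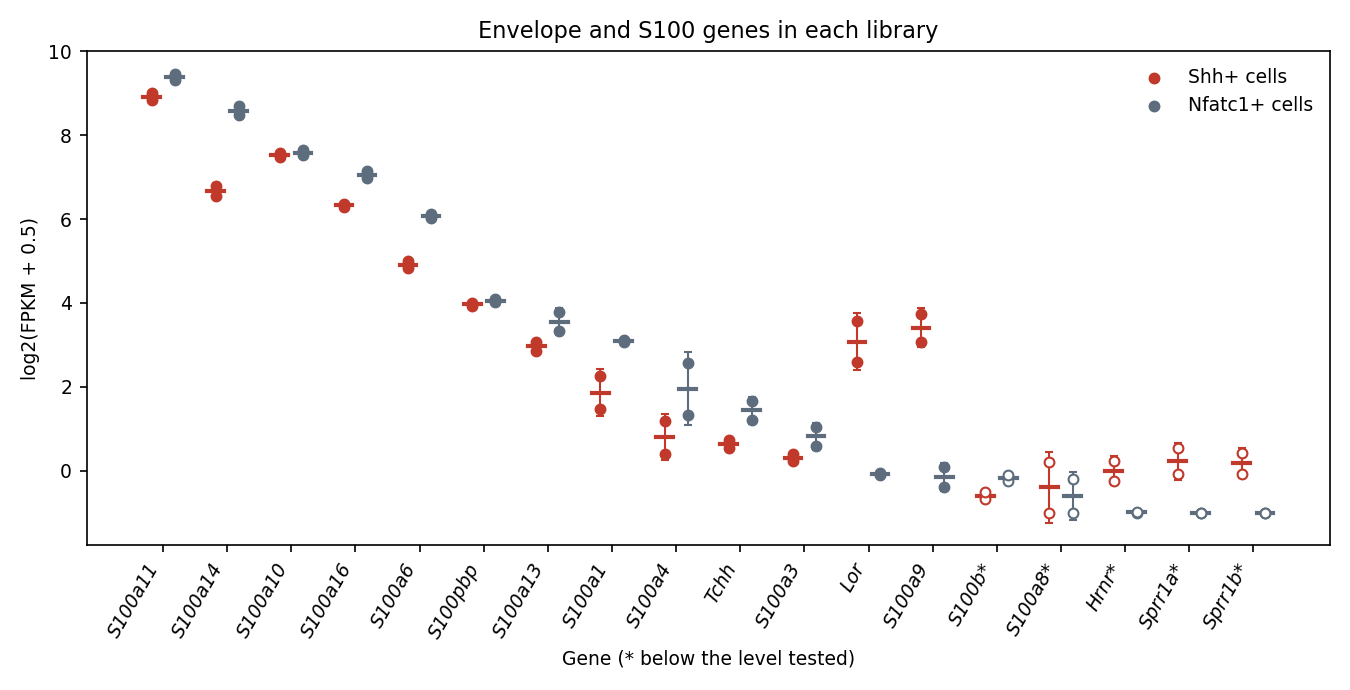
Level of each tested member, and of 5 members below the level tested (asterisk, open points), as log2(FPKM + 0.5), in Shh+ (red) and Nfatc1+ (grey) libraries. Points are libraries, bars the mean and whiskers the SD (n = 2). Lor and S100a9 sit higher in both Shh+ libraries, while S100a14 and S100a6 sit lower there.

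Depth and labels were checked in the same libraries. Shh was at 143.9 and 144.7 FPKM in Shh+ libraries, against 10.5 and 11.7 FPKM in Nfatc1+ libraries, and Nfatc1 was at 25.3 and 20.1 FPKM in Shh+ libraries, against 112.3 and 116.1 FPKM in Nfatc1+ libraries. The 8 epithelial markers summed to 5387 and 5350 FPKM in Shh+ libraries and to 8631 and 8486 FPKM in Nfatc1+ libraries. Of these markers, 5 were higher in Nfatc1+ cells by limma, where 16.6% of all tested genes were called, and 3 were not called. Krt5, at means of 2429 FPKM in Shh+ and 4320 FPKM in Nfatc1+ cells, weighs on this sum, as does Krt15 (821 and 1819 FPKM). Epcam (168 and 152 FPKM) and Perp (504 and 417 FPKM) had higher means in Shh+ cells and were not called. The table carries no counts. From what 1 fragment was worth among genes under 0.3 FPKM, depth was estimated, relative to Nfatc1+ replicate 1, at 0.927 and 0.575 in Shh+ replicates 1 and 2 and at 0.927 in Nfatc1+ replicate 2. Low values were therefore least precise in Shh+ replicate 2, and the fragment numbers below are estimates of the same kind that assume fragments of 200 bases.

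Lor encodes loricrin, the main protein of the cornified envelope in the epidermis, and spans 92080271 to 92083142 on chromosome 3. It was at 11.3 and 5.54 FPKM in Shh+ libraries, against 0.425 and 0.459 FPKM in Nfatc1+ libraries. Both Shh+ libraries stood above both Nfatc1+ libraries, and replicate 1 was the higher Shh+ library. The means were 8.42 ± 4.07 FPKM in Shh+ cells, against 0.442 ± 0.0237 FPKM in Nfatc1+ cells (SD, n = 2), a 19.1-fold ratio (log2 difference 3.16, SE 0.33, limma adjusted p = 0.004). These values stood for about 195 and 60 fragments in Shh+ libraries and 8 and 8 in Nfatc1+ libraries. The call held under all 13 alternatives tried, with log2 differences between 2.64 and 3.89.

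The other envelope precursors were near the limit of detection. Ivl, which encodes involucrin, was at 0.0526 and 0 FPKM in Shh+ libraries and listed at 0 in both Nfatc1+ libraries, an estimated 1 fragment in all. Crct1, a cysteine-rich protein gene of the complex, was listed at 0 in both Shh+ libraries and was at 0.154 and 0.166 FPKM in Nfatc1+ libraries. Neither was at a level that could be tested.

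The SPRR proteins are bridges between other envelope proteins. Of 14 Sprr genes, 10 were listed at 0 in all libraries, none was above 0 in an Nfatc1+ library and none reached the level tested. Sprr1a was at 0.443 and 0.951 FPKM in Shh+ libraries and Sprr1b at 0.845 and 0.454 FPKM, both listed at 0 in both Nfatc1+ libraries. They rested on about 3 and 4 fragments for Sprr1a and 6 and 2 for Sprr1b. Sprr3, at 0.323 FPKM in Shh+ replicate 2, and Sprr2a2, at 0.0274 FPKM in Shh+ replicate 1, were each above 0 in a single library. The near-identical Sprr2 copies share reads, so their separate values are uncertain.

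The LCE proteins are late envelope components of the outer epidermis. Of 20 Lce genes, 15 were listed at 0 in all libraries and none was tested. Lce1a1, Lce1a2, Lce1c, Lce3f and Lce6a were above 0 in some library, at no more than 0.314 FPKM. The Lce1 genes among them are also close copies of each other. The whole family summed to 0.354 and 0 FPKM in Shh+ libraries and to 0.45 and 0.477 FPKM in Nfatc1+ libraries.

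Among the 6 fused-type genes, Tchh alone was tested. It encodes trichohyalin, which hardens the inner root sheath and the hair medulla, and spans 93442330 to 93449077 on chromosome 3. Tchh was at 0.95 and 1.16 FPKM in Shh+ libraries, against 2.66 and 1.82 FPKM in Nfatc1+ libraries, about 59 and 44 fragments against 177 and 112. The groups did not overlap, and the mean was 2.12-fold higher in Nfatc1+ cells (log2 difference -0.80, SE 0.18, limma adjusted p = 0.0315). The call was lost without Nfatc1+ replicate 1 (adjusted p = 0.0737), Shh+ replicate 1 (0.127) or Shh+ replicate 2 (0.0817). The inner root sheath markers summed to 69.2 and 59.4 FPKM in Shh+ libraries and to 113.7 and 108.1 FPKM in Nfatc1+ libraries. Most of this was Gata3, at 65.8 and 55.1 FPKM in Shh+ libraries and 93.0 and 95.4 FPKM in Nfatc1+ libraries. Of the 5 markers tested, 1 was higher in the Shh+ population and 4 in the Nfatc1+ population. Over all tested genes, 14.9% and 16.6% were called in these directions. A longer list of inner root sheath genes, which adds regulators such as Msx2 and Cux1, had 11 tested and split 4 and 5. Among its tested keratins, Krt27 was higher in Shh+ cells, and Krt28, Krt71 and Krt73 were higher in Nfatc1+ cells. The part of these genes in the difference of Tchh was not tested.

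Hrnr, which encodes hornerin, a filaggrin-like protein, went the other way below the level tested. It was at 0.68 and 0.342 FPKM in Shh+ libraries, about 80 and 25 fragments of this long transcript, and at 0 and 0.0088 FPKM in Nfatc1+ libraries, about 1 fragment. Both Shh+ libraries were thus above both Nfatc1+ libraries on more fragments than any Sprr gene had. Flg2 (filaggrin-2) was at 0.0247 and 0 FPKM in Shh+ libraries and at 0 and 0.0124 FPKM in Nfatc1+ libraries. Rptn (repetin) was above 0 in Nfatc1+ replicate 1 alone, at 0.0216 FPKM, and Crnn (cornulin) in Shh+ replicate 1 alone, at 0.0632 FPKM. Tchhl1, the trichohyalin-like gene, was listed at 0 throughout.

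With no filter on low values, 17092 genes were tested and the members called higher in Shh+ cells were 5, Lor, S100a9, Hrnr, Sprr1a and Sprr1b, where 10.5% of all genes were called in that direction. The differences were 0.98 for Hrnr (SE 0.18, limma adjusted p = 0.0322), 1.23 for Sprr1a (adjusted p = 0.0318) and 1.18 for Sprr1b (adjusted p = 0.0218). The members called higher in Nfatc1+ cells were also 5, S100a14, S100a6, S100a16, S100a11 and Crct1, against 11.9% of all genes. S100a1 (adjusted p = 0.0528) and Tchh (0.0505) were not called in that fit. The fitted differences of Sprr1a, Sprr1b and Crct1, which have a group at 0, depend on the constant added before the logarithm.

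**Figure D2:**
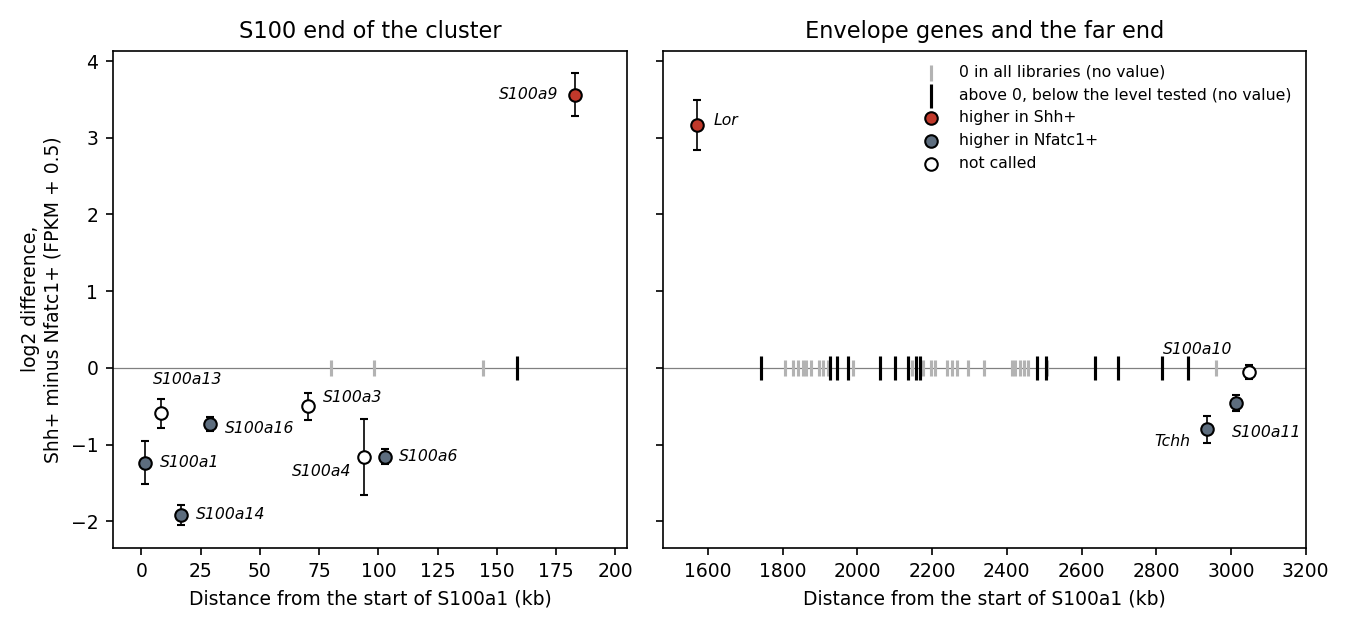
Log2 difference (Shh+ minus Nfatc1+, FPKM + 0.5, whiskers SE) of the tested members against their distance from the start of S100a1 on chromosome 3, in kb, with the S100 end of the cluster at left and the envelope genes and far S100 end at right. Ticks on the 0 line mark members without a tested value. S100a9 and Lor lie above 0, and the other tested S100 genes and Tchh lie below or near it.

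S100 genes held most of the FPKM of the set. Of 17 S100 genes (S100pbp, which encodes a binding protein, is counted apart), 12 were above 0 in some library and 10 were tested. S100a9 was higher in Shh+ cells, 5 had higher levels in Nfatc1+ cells and the other 4 were not called. Over all tested genes, 14.9% and 16.6% were called in these directions. The FPKM of the 17 S100 genes summed to 850.9 and 956.9 in Shh+ libraries and to 1546 and 1396 in Nfatc1+ libraries. S100a2, S100a5, S100a7a, S100g and S100z were listed at 0 in all libraries.

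S100a9 encodes a subunit of calprotectin, which neutrophils hold in large amounts and keratinocytes make under stress, and spans 90692630 to 90695721. It was at 7.95 and 12.8 FPKM in Shh+ libraries, against 0.262 and 0.562 FPKM in Nfatc1+ libraries. Every Shh+ library was above every Nfatc1+ library, on about 28 and 27 fragments against 1 and 2. The means were 10.4 ± 3.44 FPKM in Shh+ cells, against 0.412 ± 0.212 FPKM in Nfatc1+ cells (SD, n = 2), a 25.2-fold ratio (log2 difference 3.56, SE 0.28, limma adjusted p = 0.00196). The call held under all 13 alternatives, with log2 differences between 2.99 and 4.38, the highest with a pseudocount of 0.1 FPKM. S100a8, the other calprotectin subunit, was at 0 and 0.648 FPKM in Shh+ libraries and at 0.371 and 0 FPKM in Nfatc1+ libraries. Its groups overlapped and it was below the level tested. The 14 neutrophil and myeloid markers in the table summed to 1.70 and 3.07 FPKM in Shh+ libraries and to 2.24 and 3.68 FPKM in Nfatc1+ libraries. None of them was above 1.11 FPKM. The granule genes Ngp, Mpo and Elane and the Langerhans cell gene Cd207 were listed at 0 in all libraries. The granule genes Camp, at 0.21 FPKM in Nfatc1+ replicate 2, and Ltf, at 0.0333 FPKM in Nfatc1+ replicate 1, were each above 0 in a single library. The part of such cells in the level of S100a9 was not tested.

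S100a14, at 90526849 to 90528837, encodes an epithelial S100 protein. It was at 92.6 and 110.8 FPKM in Shh+ libraries, against 415 and 355 FPKM in Nfatc1+ libraries. The lowest Nfatc1+ library was far above the highest Shh+ library, and the means were 101.7 ± 12.9 FPKM in Shh+ cells, against 385 ± 42.5 FPKM in Nfatc1+ cells (SD, n = 2). The mean was 3.79-fold higher in Nfatc1+ cells (log2 difference -1.92, SE 0.13, limma adjusted p = 0.00149). S100a16, which forms homodimers and lies beside S100a14, was at 78.0 and 81.2 FPKM in Shh+ libraries, against 140.4 and 126.1 FPKM in Nfatc1+ libraries. This was 1.67-fold higher in Nfatc1+ cells (log2 difference -0.74, SE 0.09, limma adjusted p = 0.0064), again without overlap.

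S100a6, which encodes calcyclin, a protein of proliferating cells, was at 28.1 and 31.4 FPKM in Shh+ libraries, against 64.8 and 69.0 FPKM in Nfatc1+ libraries. It was 2.25-fold higher in Nfatc1+ cells (log2 difference -1.16, SE 0.09, limma adjusted p = 0.00208). The calls of S100a14 and S100a6 held under all 13 alternatives. S100a11, a partner of annexin A1 that is also found in the cornified envelope, was the member with the highest FPKM in both populations. It was at 455 and 515.6 FPKM in Shh+ libraries, against 699.4 and 637.6 FPKM in Nfatc1+ libraries. The groups did not overlap, and the mean was 1.38-fold higher in Nfatc1+ cells (log2 difference -0.46, SE 0.10, limma adjusted p = 0.0327). This call was lost whichever library was left out, with adjusted p between 0.0544 (without Shh+ replicate 2) and 0.141 (without Nfatc1+ replicate 1), the others being 0.0841 without Nfatc1+ replicate 2 and 0.11 without Shh+ replicate 1.

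S100a10, which encodes p11, the partner of annexin A2, was not called, unlike its neighbour S100a11, and no test compared the genes with each other. It was at 177.5 and 190.6 FPKM in Shh+ libraries, against 200.2 and 183.2 FPKM in Nfatc1+ libraries, and the groups overlapped. The log2 difference was -0.06 (95% interval -0.30 to 0.18, limma adjusted p = 0.659). Of the 5 annexins in the S100 partner list, Anxa6 (log2 difference -1.05) and Anxa11 (-0.69) were higher in Nfatc1+ cells by limma, and Anxa1, Anxa2 and Anxa5 were not called. Anxa2 was at 506.9 and 528.5 FPKM in Shh+ libraries, against 476.7 and 470.5 FPKM in Nfatc1+ libraries (limma adjusted p = 0.259), and Anxa1 at 64.5 and 84.9 FPKM in Shh+ libraries, against 70.0 and 67.0 FPKM in Nfatc1+ libraries (adjusted p = 0.612).

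The order of the abundant S100 genes by FPKM, which is per length, differed between the populations. In Shh+ cells it ran S100a11, S100a10, S100a14, S100a16 and S100a6, and in Nfatc1+ cells S100a14 stood above S100a10. In each population the libraries of neighbouring genes in this order did not overlap. This order is a description with no test between genes.

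Of the low S100 genes, S100a1, known from heart and skeletal muscle, was at 2.25 and 4.28 FPKM in Shh+ libraries, against 7.94 and 8.13 FPKM in Nfatc1+ libraries. It was 2.46-fold higher in Nfatc1+ cells (log2 difference -1.23, SE 0.28, limma adjusted p = 0.0325), a call lost without Nfatc1+ replicate 1 (adjusted p = 0.111) or 2 (0.12). S100a1 and S100a13 overlap by 98 bases on opposite strands, and whether strand was used in the quantification is not given in the sources used here, so both values are uncertain. S100a13, which takes part in the release of FGF1, was at 7.88 and 6.75 FPKM in Shh+ libraries, against 13.3 and 9.50 FPKM in Nfatc1+ libraries. Its groups did not overlap, but the difference of -0.59 was not called (limma adjusted p = 0.075).

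S100a4, found in mesenchymal and myeloid cells, was at 0.824 and 1.77 FPKM in Shh+ libraries, against 2.03 and 5.44 FPKM in Nfatc1+ libraries, with replicate 2 the higher in each population. The difference of -1.16 (SE 0.49) was not called (limma adjusted p = 0.146). S100b, a gene of melanocytes and Schwann cells, was at 0.124 and 0.199 FPKM in Shh+ libraries, against 0.344 and 0.433 FPKM in Nfatc1+ libraries, below the level tested. The 11 melanocyte and Schwann cell markers summed to 45.8 and 81.9 FPKM in Shh+ libraries and to 69.8 and 106.7 FPKM in Nfatc1+ libraries, higher in replicate 2 of each population. The 8 fibroblast markers summed to 603.7 and 668.6 FPKM in Shh+ libraries and to 367.4 and 657.4 FPKM in Nfatc1+ libraries. Dcn (decorin) alone was at 326.4 and 424.7 FPKM in Shh+ libraries, against 40.3 and 57.7 FPKM in Nfatc1+ libraries. Without it the sum turned, with 277.3 and 243.8 FPKM in Shh+ libraries, against 327.1 and 599.8 FPKM in Nfatc1+ libraries, and replicate 2 was then the higher library in Nfatc1+ cells but not in Shh+ cells. The part of these markers in the levels of S100a4 and S100b was not tested. S100a3, a gene of the hair cuticle, was at 0.674 and 0.814 FPKM in Shh+ libraries, against 1.56 and 1.01 FPKM in Nfatc1+ libraries (limma adjusted p = 0.0969), and its annotated span holds S100a2. S100pbp was at 14.8 and 15.54 FPKM in Shh+ libraries, against 16.4 and 15.7 FPKM in Nfatc1+ libraries (log2 difference -0.08, 95% interval -0.29 to 0.13).

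Genes between the outermost members that were not members themselves gave no call. Of 44 in the annotation, 8 had a row in the table, 2 of these were listed at 0 in all libraries, and none reached the level tested. The highest was Pglyrp4, a peptidoglycan recognition protein gene, at 0.269 and 0.506 FPKM in Shh+ libraries and 0.374 and 0.269 FPKM in Nfatc1+ libraries.

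Other genes of cornification, outside the cluster, were called in both directions. Of 119 tested genes in 8 lists, 32 were higher in the Shh+ population 43 in the Nfatc1+ population, and 44 were not called. Without Nfatc1+ replicate 1, 21 genes were called on the Shh+ side. Of the 14 other envelope and suprabasal proteins tested, 5 were higher in the Shh+ population and 2 in the Nfatc1+ population, with a median difference of 0.28. The calmodulin-like Calm4 (1.29) and Calml3 (1.28) and the filaggrin-processing protease Asprv1 (1.21) were higher in Shh+ cells, and Krtdap (-0.98) and Dmkn (-0.74), secreted proteins of differentiating keratinocytes, in Nfatc1+ cells. Of 8 suprabasal keratins, 4 were higher in Shh+ cells, among them Krt6a (2.39), Krt16 (0.90) and Krt10 (0.81), and Krt79 (-1.26) and Krt80 (-1.07) were higher in Nfatc1+ cells.

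The 9 suprabasal markers, set beside Lor, summed to 1345 and 1154 FPKM in Shh+ libraries and to 945 and 992 FPKM in Nfatc1+ libraries. Of these, 4 were higher in the Shh+ population, 3 in the Nfatc1+ population, and 2 were not called, against 14.9% and 16.6% of all tested genes. Krt1, the suprabasal keratin paired with Krt10, was at 448.7 and 364.2 FPKM in Shh+ libraries, against 230.3 and 266.4 FPKM in Nfatc1+ libraries (log2 difference 0.71, limma adjusted p under 0.05). Krtdap was at 177.9 and 175.5 FPKM in Shh+ libraries, against 357 and 340 FPKM in Nfatc1+ libraries. The part of suprabasal cells in the level of Lor was not tested.

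**Figure D3:**
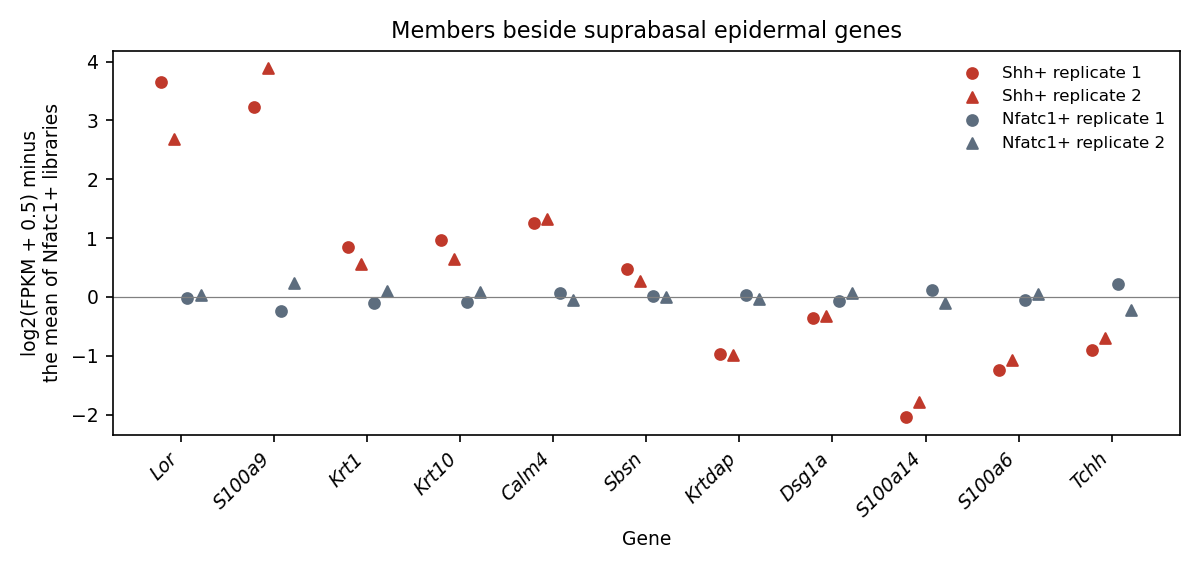
Log2(FPKM + 0.5) minus the mean of the Nfatc1+ libraries for 5 members and 6 suprabasal epidermal genes, in each Shh+ (red) and Nfatc1+ (grey) library, circles for replicate 1 and triangles for replicate 2. Lor and S100a9 stand further above the Nfatc1+ libraries than Krt1, Krt10, Calm4 or Sbsn, while Krtdap and Dsg1a lie below them.

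Of 16 tested cross-linking enzymes and proteases, 5 were higher in the Shh+ population and 8 in the Nfatc1+ population. For this list and the next ones, the shares over all tested genes were 14.9% and 16.6%. Padi3 (2.50) and Padi4 (1.88), which turn arginine into citrulline, and the protease Klk13 (1.91) were higher in Shh+ cells. Tgm1, a transglutaminase that cross-links loricrin and involucrin, was at 1.83 and 2.13 FPKM in Shh+ libraries, against 0.697 and 1.04 FPKM in Nfatc1+ libraries (log2 difference 0.87, SE 0.15). The transglutaminase Tgm5 (-1.89), the desquamation protease Klk5 (-1.76) and the calpain Capn1 (-1.19) were higher in Nfatc1+ cells. Of 16 barrier lipid genes, 5 were higher in Shh+ cells, led by Alox12 (1.97), Cyp4f39 (1.74) and Degs2 (0.99), and 3 in Nfatc1+ cells, Abca12 (-2.31), which loads lamellar granules, Elovl1 (-0.71) and Pnpla1 (-0.63). Of 12 desmosome genes, 2 were higher in Shh+ cells, Pkp2 (1.37) and Dsp (0.53), and 5 in Nfatc1+ cells, led by Dsg3 (-1.64), Dsc3 (-1.29) and Pkp1 (-1.07).

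The inner root sheath list holds keratins and regulators, and 11 of its genes were tested. Of these, 4 were higher in Shh+ cells, led by Msx2 (1.21), Krt27 (0.96) and Cux1 (0.95). Another 5 were higher in Nfatc1+ cells, led by the keratins Krt73 (-3.00), Krt28 (-1.72) and Krt71 (-1.19). Of 12 S100 binding partners and receptors, Alcam (1.15) was higher in the Shh+ population and 6 genes in the Nfatc1+ population, led by Sytl2 (-1.11), Cd36 (-1.06) and Anxa6 (-1.05). The receptor for advanced glycation end products, Ager, was among these 6 (-0.81).

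Of 30 tested regulators of keratinocyte differentiation, 6 were higher in the Shh+ population, 12 in the Nfatc1+ population, and 12 were not called. The shares over all tested genes were 14.9% and 16.6%. Grhl3, a Grainyhead-like factor needed for the skin barrier, was at 26.9 and 27.5 FPKM in Shh+ libraries, against 5.09 and 4.01 FPKM in Nfatc1+ libraries (log2 difference 2.46, SE 0.13). Zfp750 (1.34), Ovol2 (0.90), Notch1 (0.78) and Hes1 (0.58) were also higher in Shh+ cells. The vitamin D receptor Vdr was at 8.60 and 7.81 FPKM in Shh+ libraries, against 54.6 and 46.8 FPKM in Nfatc1+ libraries (log2 difference -2.55, SE 0.11). Prdm1 (-2.36), Ehf (-2.33), Barx2 (-2.17), Ahr (-2.06), Cebpb (-1.59), Grhl1 (-1.22), Maf (-1.05), Klf4 (-0.89), Cebpa (-0.81), Nfe2l2 (-0.70) and Trp63 (-0.38) were also higher in Nfatc1+ cells. All differences given in parentheses for these lists passed limma at an adjusted p under 0.05.

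**Figure D4:**
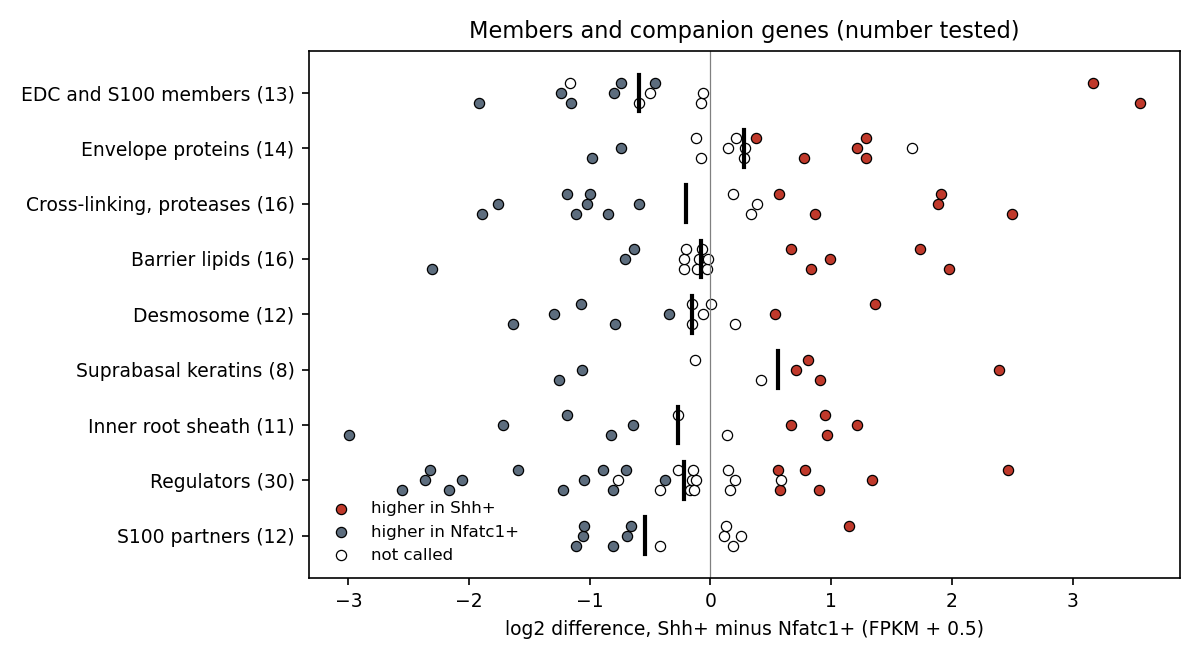
Log2 difference (Shh+ minus Nfatc1+, FPKM + 0.5) of each tested member and of each tested gene of the 8 companion lists, 1 point per gene, with a bar at the list's median. Red points were called higher in Shh+ cells, grey points higher in Nfatc1+ cells and open points not called. Calls in both directions appear in each list.

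Immediate early and stress genes, which tissue digestion can induce, summed to 3298 and 2986 FPKM in Shh+ libraries and to 4437 and 4821 FPKM in Nfatc1+ libraries. Of the 20 tested, 11 were higher in the Nfatc1+ population in the limma fit, against 16.6% of all tested genes, and 9 were not called. The part of digestion in the levels of the S100 genes was not tested. Merkel cell markers (23.9 and 29.1 FPKM in Shh+ libraries, 59.1 and 66.7 FPKM in Nfatc1+ libraries) were also summed higher in Nfatc1+ libraries, with the same limit. So were sebocyte markers (83.5 and 66.7 FPKM in Shh+ libraries, 145.2 and 132.8 FPKM in Nfatc1+ libraries). Single genes weigh on these sums. Krt8 was at 17.1 and 20.4 FPKM in Shh+ libraries, against 25.0 and 29.2 FPKM in Nfatc1+ libraries. The sebocyte marker Fasn went the other way, at 54.3 and 41.5 FPKM in Shh+ libraries, against 35.8 and 38.8 FPKM in Nfatc1+ libraries, and was not called. Endothelial markers summed to 4.53 and 4.10 FPKM in Shh+ libraries and to 3.62 and 5.12 FPKM in Nfatc1+ libraries, and erythroid markers to 79.7 and 55.9 FPKM in Shh+ libraries and to 35.4 and 77.4 FPKM in Nfatc1+ libraries.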

How the data were processed

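RNA of 2 Shh+ and 2 Nfatc1+ sorted cell samples was sequenced on the Illumina HiSeq platform with paired ends. The authors used TopHat (v2.0.13) for mapping to GRCm38/mm10 and Cufflinks (v2.2.1) for quantification, and the submitters' processing notes also name HTSeq without a role. The annotation is not given in the sources used here. The deposited FPKM values were used as they stand.

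Groups came from the sample titles. Genes averaging 0.5 FPKM or more were tested as log2(FPKM + 0.5) by limma (v3.58.1, R v4.3.3), two-sided, with Benjamini-Hochberg adjustment over all 12750 genes. Depth was estimated from the steps between low values, assuming 200-base fragments, since Cufflinks values are not counts, so fragment numbers are approximate. The procedure was tested on simulated data with the same noise for every gene, which does not cover the wider spread of low genes. Alternatives were the pseudocount, the filter, scaling, a variance trend, the replicate number as a block, another threshold and leaving out each library.

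Named members had a mean of at least 50 FPKM in a population, were called at 2-fold or more, or were singly named by the rule. Other members were named in groups of 5 or fewer; S100a3, S100a4, S100a8, S100a13, S100b, S100pbp, Sprr1a, Sprr1b, Sprr2a2 and Sprr3 were named on that ground or after their values were seen. Companion genes were named if among the 3 largest called differences of a list in each direction, regulators if called (1 of them is not reported here), and Anxa1, Anxa2, Anxa5, Anxa11, Dcn, Tgm1, Ager, Krt1 and Pglyrp4 after their values were seen. Members and lists were chosen with earlier results of these data known. Chromosome positions and promoters came from RefSeq, GRCm38.p6.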

Additional observations from a re-analysis of the deposited data

How the results depend on the processing

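No member reversed under any of the 13 alternatives while called. The members called higher in Shh+ cells numbered 2 in every alternative except without the filter, where they were 5 (Lor, S100a9, Hrnr, Sprr1a and Sprr1b), since more genes were tested. Those higher in Nfatc1+ cells, 6 in the report, were 3 at an unadjusted p under 0.01 with at least 2-fold (the form of the study's threshold), and between 3 and 6 when one library was left out, the lowest without Nfatc1+ replicate 1. The companion genes, 32 higher in the Shh+ population and 43 in the Nfatc1+ population, were 14 and 25 at that threshold, and between 21 and 28 and between 34 and 39 when one library was left out, with 21 without Nfatc1+ replicate 1. No gene lying between members was called in any fit. Over all genes the calls, 1898 higher in the Shh+ population and 2111 in the Nfatc1+ population, were 591 and 720 at that threshold, and among the fits that left out a library the lowest counts were 1036 and 1191, without Nfatc1+ replicate 1. With the replicate number as a block, 2 members were called on the Shh+ side and 7 on the Nfatc1+ side, and 33 and 42 companion genes. S100a4 (adjusted p = 0.0107) and S100a13 (0.0263) were then called and S100a11 (0.0557) was not. The labels give only the numbers, which were not taken as pairing. Over the tested genes, the deviations of same-numbered libraries from their group means correlated at 0.114. With 2 libraries per group this value is the same for both pairs by construction, so it cannot decide whether libraries were paired. S100a13 was also called with a variance trend (adjusted p = 0.0298) and without Nfatc1+ replicate 2 (0.0375), as was S100a3 without that library (0.0406), and S100a1 was lost at a pseudocount of 0.1 FPKM (0.052). Depth limits the Sprr, Lce and fused-type genes, of which most rest on a few fragments or none.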
